A study of Rattus norvegicus with 18 samples.

Results

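A set of 10 genes that mark T cells and natural killer (NK) cells were followed in the retina and in the retinal pigment epithelium with choroid (RPE/choroid) of rats. They are Cd3d, Cd3e, Cd3g, Cd4, Cd8a, Cd2, Cd5, Lck, Nkg7 and Gzmb, chosen by symbol as lineage markers. All 10 of 10 were found in both tissues, among 32285 genes in the retina table and 32552 in the RPE/choroid table. All animals were wild-type female Fischer rats of the F344 strain. Young rats were untreated and 4 months old by the sample labels, aged rats were 24 months old and drank plain water, and treated aged rats were 24 months old and had drunk water with 8-aminoguanine (8-AG), 5 mg/kg/day, over 8 weeks from the age of 22 months. 8-AG inhibits purine nucleoside phosphorylase, an enzyme that T cells depend on to clear purine nucleosides. Each tissue had 3 libraries from each of these groups, 18 in all. The retina libraries held 12283458 to 15644346 counts and the RPE/choroid libraries 28573828 to 48203050. Young RPE/choroid libraries 1 and 2 share a rat number in their labels, as do aged libraries 1 and 2, so the p-values measure a spread that may partly be technical.

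T cells recognise antigen through a receptor whose signal is carried into the cell by the CD3 chains, with the co-receptors CD4 or CD8 binding the antigen-presenting molecule and bringing the kinase Lck to the complex. NK cells and cytotoxic T cells kill targets with granules that hold perforin and granzymes. The retina lies behind a blood barrier and normally holds few lymphocytes, its resident immune cells being microglia. The choroid is a vascular layer with macrophages, mast cells and T cells of its own. In rats CD4 protein is also found on monocytes, macrophages and microglia, so Cd4 alone does not mark T cells in this species.

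The genes of the CD3 chains are shown by their promoters because they are neighbours, in the order Cd3g, Cd3d and Cd3e with no other protein-coding gene between them in RefSeq, and because they had nearly the same pattern over the RPE/choroid libraries described further on. Each stretch is 300 bases of the GRCr8 assembly from RefSeq, from 250 bases before to 50 bases after the gene's start, written 5′ to 3′ along the gene. Cd3g lies on the minus strand at chr8:54183869-54184168, Cd3d on the plus strand at chr8:54185269-54185568, and Cd3e on the minus strand at chr8:54211721-54212020. Capitals mark the letters AGGAAG or their reverse complement CTTCCT, the core that ETS factors bind.
Cd3g: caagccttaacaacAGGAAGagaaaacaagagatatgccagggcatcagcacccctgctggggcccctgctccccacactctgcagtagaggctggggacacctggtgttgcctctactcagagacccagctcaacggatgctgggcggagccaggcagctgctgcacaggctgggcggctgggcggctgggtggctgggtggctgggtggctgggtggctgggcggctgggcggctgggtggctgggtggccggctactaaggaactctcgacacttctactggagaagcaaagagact
Cd3d: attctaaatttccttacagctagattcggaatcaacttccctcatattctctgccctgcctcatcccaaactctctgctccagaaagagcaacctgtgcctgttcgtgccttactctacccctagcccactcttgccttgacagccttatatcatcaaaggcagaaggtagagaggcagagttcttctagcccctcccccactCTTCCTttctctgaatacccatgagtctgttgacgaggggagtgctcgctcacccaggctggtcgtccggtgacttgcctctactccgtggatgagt
Cd3e: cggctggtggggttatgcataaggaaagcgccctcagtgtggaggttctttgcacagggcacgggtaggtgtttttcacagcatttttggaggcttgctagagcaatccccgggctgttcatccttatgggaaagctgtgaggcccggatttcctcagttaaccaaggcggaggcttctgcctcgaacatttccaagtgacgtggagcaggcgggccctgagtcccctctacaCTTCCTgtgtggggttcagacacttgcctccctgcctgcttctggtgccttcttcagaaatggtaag
Each CD3 promoter held 1 such match, and 34.5% of all promoters of this length held at least 1. The RUNX core TGTGGT, searched on both strands, was in none of the CD3 promoters and in 17.3% of all promoters. The letters TATAAA, found in 14.2% of all promoters, were in none of them. Gzmb differed, with 3 matches to TGTGGT, 1 to AGGAAG and 1 to TATAAA. Of the 10 genes, 9 had a promoter entry. A match to these letters is a description of the sequence.

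The retina libraries held rod photoreceptor genes at 33090 to 57680 CPM in sum, as the tissue label says. In the retina the CD3 chains were at the limit of detection in every group. Cd3d (ENSRNOG00000015994) had 0 expected counts in each young library, 0, 1 and 0 in the aged libraries and 0 in each 8-AG-treated library. Cd3g (ENSRNOG00000015945) had 0 in each young library, 2, 0 and 3 in aged retina, and 1, 0 and 2 in treated retina. Cd3e (ENSRNOG00000016069) had 1, 1 and 0 counts in young, 2, 0 and 2 in aged, and 2, 3 and 0 in treated retina. No library reached more than 3 counts of any CD3 chain, and the groups overlapped for Cd3e and, by sharing libraries at 0, for Cd3d and Cd3g. At this depth a count of 0 allows a level of up to 0.192 to 0.244 counts per 1000000 (CPM), counting error only, so a change below that level was not detectable.

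**Figure D1:**
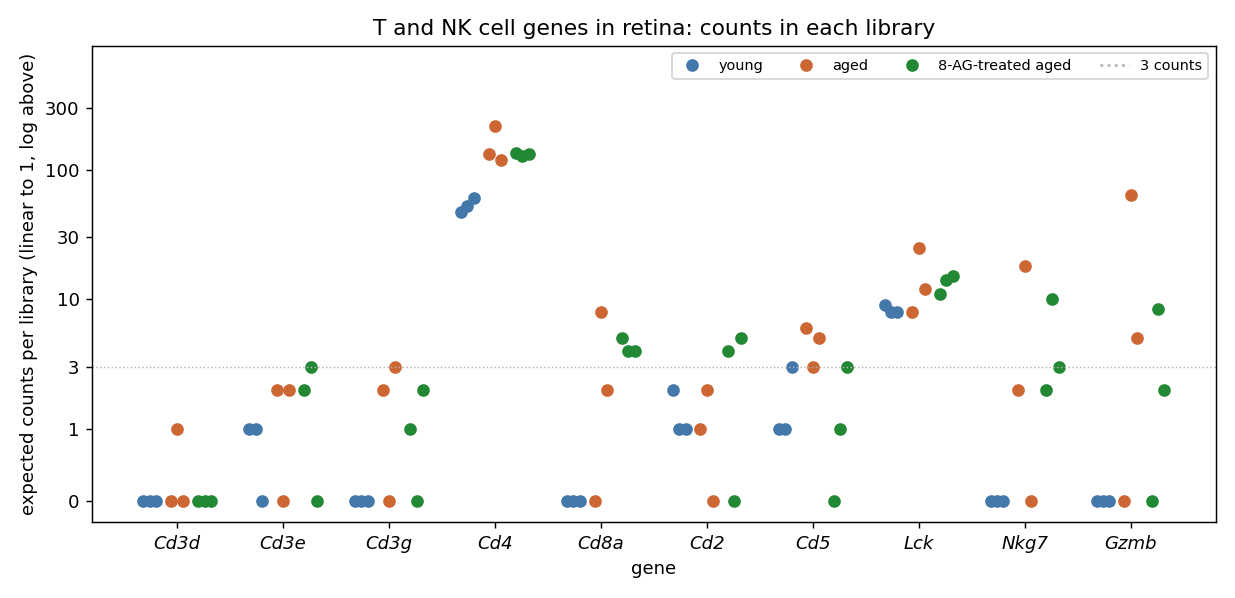
Expected counts of each gene in each of the 9 retina libraries, for Gzmb those of ENSRNOG00000049976, on an axis that is linear up to 1 and logarithmic above, with 1 point per library and the dotted line at 3 counts. Cd4 stands alone above 40 counts in every library, with all 6 aged and treated libraries above the 3 young ones, and the CD3 chains never pass 3 counts.

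Cd4 (ENSRNOG00000016294), the co-receptor of helper T cells and in rats also a macrophage and microglia gene, was the one gene of the 10 with counts high enough for the test of aged against young retina. It had 3.62, 3.90 and 4.08 CPM in young libraries 1, 2 and 3, 10.3, 13.8 and 8.24 CPM in aged libraries 1, 2 and 3, and 10.4, 10.3 and 8.76 CPM in treated libraries 1, 2 and 3. All aged and all treated libraries lay above all young ones, while aged and treated libraries overlapped. Cd4 rose with age by 1.48 on the log2 scale (standard error 0.20, 95% interval 1.04 to 1.92), with an adjusted p of 0.00129 by edgeR's quasi-likelihood test. Among the 14588 genes tested, 7.29% rose and 7.26% fell with an adjusted p under 0.05. Between 8-AG-treated and aged retina the Cd4 difference was -0.14 (95% interval -0.57 to 0.29, edgeR adjusted p = 0.996), and 0.0205% of genes were called higher and 0.0% lower. Against young retina the treated libraries were higher by 1.35 (standard error 0.15, edgeR adjusted p = 5.61e-04), where 7.78% of genes were called higher. The 2 contrasts with young share the same young libraries. In bulk tissue fewer or more cells of a type and less or more RNA per cell cannot be told apart.

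Leukocyte and macrophage markers rose in the same comparison. Ptprc, which encodes the leukocyte surface phosphatase CD45, was 1.56 ± 0.0936 CPM (SD, n = 3) in young, 5.96 ± 1.73 in aged and 7.21 ± 1.43 in treated retina. Its log2 fold change with age was 1.93 (edgeR adjusted p = 0.00132). Csf1r, the receptor that macrophages and microglia need to survive, rose by 1.48 (edgeR adjusted p = 9.2e-05), from 15.3 ± 0.0943 to 42.5 ± 6.82 CPM. Of 14 microglia and macrophage genes 12 were tested, all 12 had values above 0, and 10 rose, with a median of 1.78 on the log2 scale beside 0.00 over all genes. Of 8 pan-leukocyte genes all 7 tested rose. The summed level of the microglia and macrophage list was 41.5 to 44.8 CPM in young, 127.5 to 222.3 CPM in aged and 148.5 to 153.0 CPM in treated retina. Cd4 amounted to 8.08% to 9.84% of that sum in young, 6.20% to 6.61% in aged and 5.90% to 6.84% in treated libraries. The 3 CD3 chains together had 1, 1 and 0 counts in young, 4, 1 and 5 in aged and 3, 3 and 2 in treated retina, at most 0.346 CPM. The parts of macrophages, microglia and T cells in the Cd4 change were not tested.

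**Figure D2:**
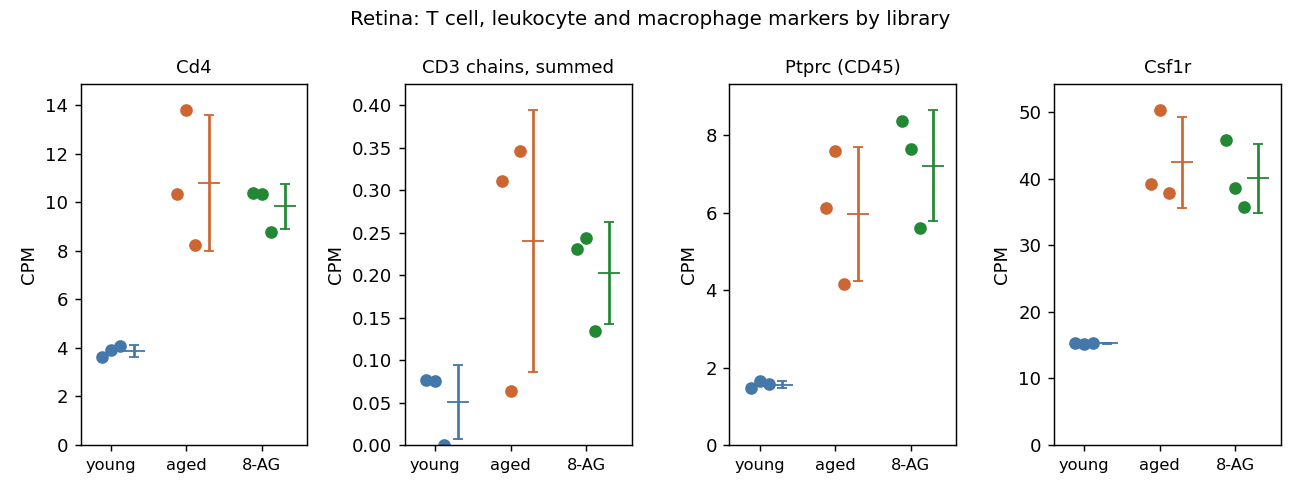
CPM of Cd4, the summed CD3 chains, Ptprc and Csf1r in retina, with 1 point per library and the mean and SD of 3 libraries beside them, each panel on its own linear axis from 0. Cd4, Ptprc and Csf1r are higher in every aged and treated library than in any young one, while the CD3 panel ends below 0.5 CPM.

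Cd8a (ENSRNOG00000007178), a chain of the co-receptor of cytotoxic T cells, had no counts in young retina. It had 0, 8 and 2 counts in the aged libraries and 5, 4 and 4 in the treated libraries. Aged and young retina overlapped at 0, and all 3 treated libraries were above all young ones. Set against a floor of 3 counts over the 3 young libraries, pooled Cd8a was 3.45-fold higher in aged and 4.64-fold higher in treated retina. The 10 aged and 13 treated counts were taken without counting error. Such folds were formed only for genes at 0 in young retina and above 3 counts in the other group. A value over 1 was therefore built in, and the folds support nothing. The aged fold rests on library 2, since libraries 1 and 3 together had 2 counts, below the floor. Cd8a did not pass edgeR's expression filter.

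Lck (ENSRNOG00000009705), the kinase that starts signalling at the T cell receptor, had 9, 8 and 8 counts in young retina. It had 8, 25 and 12 counts in aged and 11, 14 and 15 in treated retina. Aged retina overlapped young retina, and treated libraries all lay above the young ones. The log2 difference of treated from young retina was 0.70 (95% interval -0.07 to 1.47, edgeR adjusted p = 0.209), and that of treated from aged retina was -0.05 (95% interval -0.94 to 0.84). With aged library 2 left out the second value was 0.44.

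Cd2 and Cd5 are adhesion and inhibitory receptors of T cells. Cd2 (ENSRNOG00000015821) had 2, 1 and 1 counts in young, 1, 2 and 0 in aged and 4, 0 and 5 in treated retina. Cd5 (ENSRNOG00000020872) had 1, 1 and 3 counts in young, 6, 3 and 5 in aged and 0, 1 and 3 in treated retina. The groups overlapped in each comparison for both genes.

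Among cytotoxic granule genes, Nkg7 and Gzmb had at most 1 count in a young retina library and came mainly from single libraries elsewhere. The granzyme gene Gzmm, outside the 10, had 100 summed counts in young, 169 in aged and 163 in treated retina. Nkg7 (ENSRNOG00000017749), a granule membrane protein of NK and cytotoxic T cells, had 0 counts in each young library, 2, 18 and 0 in aged and 2, 10 and 3 in treated retina. Gzmb, the protease granzyme B, had by the identifier ENSRNOG00000049976 0 counts in each young library, 0, 63.7 and 5 in aged, and 0, 8.44 and 2 in treated retina. Aged library 2 thus held 90.0% of the aged Nkg7 counts and 92.7% of the aged Gzmb counts of that identifier. Against the floor of 3 young counts, that identifier was 23.7-fold higher in pooled aged retina and 2.72-fold higher without that library. The latter value rests on 5 counts, all in aged library 3. As for Cd8a, a value over 1 was built in by the choice of genes, so these folds support nothing. The same library had the highest erythrocyte marker sum of the retina, 186.2 CPM beside 12.6 to 65.7 CPM in the others, and the highest microglia and macrophage sum. The part of blood in these counts was not tested. In the retina table the symbol Gzmb adds a second identifier, ENSRNOG00000045973, with 1, 0 and 0 counts in young, 5, 8.26 and 0 in aged and 0, 9.56 and 1 in treated retina, so reads may have been split between similar granzyme genes. Summed over both identifiers, as the symbol row has it, Gzmb had 1, 0 and 0 counts in young, 5, 72 and 5 in aged and 0, 18 and 3 in treated retina. By that sum all aged libraries lay above all young ones, while treated retina overlapped both.

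Taking the 10 genes together, 1 did not overlap between aged and young retina, in the upward direction, where 14.3% of genes with a count did so. The identifier of Gzmb decides this number, which is 2, Cd4 and Gzmb, when both identifiers are summed. Between treated and young retina 4 did so, Cd4, Cd8a, Lck and Nkg7, beside 14.1% of genes. Between treated and aged retina there were 0, beside 4.15% higher and 3.77% lower. When every gene with a count was tested, 3 of them passed an adjusted p under 0.05 in treated against young retina by edgeR, Cd4 with Cd8a (adjusted p = 0.0221) and Nkg7 (adjusted p = 0.0268), beside 5.55% of all genes called higher in that setting. With a minimum of 10 counts in sum the adjusted p was 0.0306 for Cd8a and 0.0566 for Nkg7. Both genes entered these tests only through the treated group, with 13 and 15 counts there and 0 in young retina, so a difference was built into their selection and these p-values support nothing. In these settings the fitted fold changes of genes at 0 in young retina depend on a prior count and are not given. Surface epithelium genes, mostly keratins, summed to 29.97 to 48.1 CPM in the treated libraries and 15.9 to 28.9 CPM in the other 6. Of 6 tested in treated against young retina 3 rose, and Krt19, the most abundant, fell by 0.66 on the log2 scale (edgeR adjusted p = 0.00942). Their part in the counts of the T and NK cell genes was not tested.

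Of 23 further T cell genes 9 were tested in aged against young retina, and 1 rose. Lcp2, an adaptor of receptor signalling in T cells and myeloid cells, rose by 1.46 (edgeR adjusted p = 0.0143), a call lost without young library 1 (adjusted p = 0.0594). In treated against young retina Lcp2 was higher by 1.28, and Cd6, a receptor of T cells, was higher by 1.65 (edgeR adjusted p = 0.00909). Cd6 was 0.555 ± 0.153 CPM (SD, n = 3) in young, 1.43 ± 0.891 in aged and 1.76 ± 0.116 in treated retina. Its difference was 1.37 in aged against young retina (edgeR adjusted p = 0.0941) and 0.27 in treated against aged retina (edgeR adjusted p = 0.996). Of 22 further NK and cytotoxic genes 6 were tested in retina and none passed in any of the 3 comparisons. The best measured, Klrd1, an NK receptor chain, had 19.4 ± 4.06 CPM in young, 19.8 ± 6.45 in aged and 15.5 ± 0.539 in treated retina. Of the other NK genes, Klrb1c, Klrk1, Klrc1, Klrg1 and Ncr1 had 0 counts in young retina. Klrb1a, Ncr3 and Cd226 had counts in every retina library. Whether the Klrd1 reads came from NK cells was not tested. Perforin (Prf1) had 4.72 CPM in aged library 2, its highest retina value, and the median aged library had 0.466 CPM.

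Of the 11 genes whose products attract or hold T cells, 5 were tested in aged against young retina and 4 rose. They were the chemokines Cxcl10 and Cxcl16 and the adhesion molecules Icam1 and Vcam1. Icam1, which binds the leukocyte integrin LFA-1, went from 2.90 ± 0.433 to 10.3 ± 1.60 CPM, by 1.83 on the log2 scale (edgeR adjusted p = 3.15e-04). Cxcl16, the ligand of the chemokine receptor Cxcr6, rose by 1.01, and Vcam1 by 0.62 (edgeR adjusted p = 0.0378). The Vcam1 call was lost without young library 2 or without any of the 3 aged libraries, at edgeR adjusted p values of 0.0587 to 0.152. None of the 6 tested between treated and aged retina passed, with differences from -0.51 to 0.13. On low counts, Cxcl9 and Madcam1 were lower in all treated than in all aged libraries, beside 3.77% of all genes. Cxcl9 had 43 summed counts in aged and 5 in treated retina, and Madcam1 had 13 and 2. The rest of the list overlapped.

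In RPE/choroid all 10 genes were measured well above the floor, with counts in all 9 libraries. RPE marker genes, present as the tissue label says, summed to 6102 to 18270 CPM, while rod photoreceptor genes, which belong to the retina, ranged from 606.1 to 54060 CPM. One library stood apart. 8-AG-treated library 1 had the lowest value of all 10 T and NK cell genes, which summed to 28.7 CPM there beside 178.8 to 306.6 CPM in the other 8 libraries. Its pan-leukocyte sum was 127.8 CPM beside 731.0 to 1156 CPM, its microglia and macrophage sum 470.0 CPM beside 1275 to 2490 CPM, and its RPE sum was the lowest of the 9. Its striated muscle sum was 48800 CPM beside 17.7 to 4742 CPM, its surface epithelium sum 1995 CPM beside 18.8 to 313.4 CPM, and its rod sum the highest. The treated-to-aged difference of each of the 10 genes is therefore given with and without it.

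**Figure D3:**
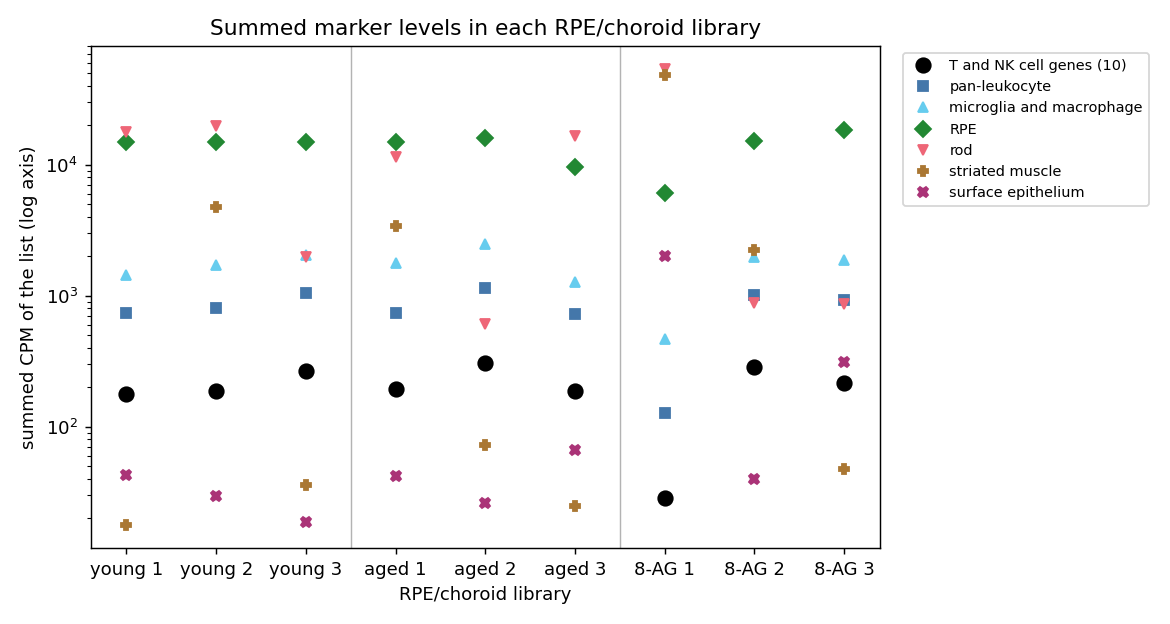
Summed CPM of 7 marker lists in each RPE/choroid library on a logarithmic axis, 1 symbol per list and library. In 8-AG library 1 the T and NK cell genes, pan-leukocyte and macrophage symbols are the lowest of the 9 libraries, and the rod, striated muscle and surface epithelium symbols the highest.

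The gap between that library and the others was uneven among the genes. Compared with the median of the other 8 libraries, Cd8a was 15.5-fold lower, Gzmb 14.2-fold, Cd2 12.2-fold and Nkg7 10.8-fold lower. Cd4 was 5.48-fold lower and Cd5 3.46-fold lower, the latter on 12 counts. Gzmb, at 0.214 CPM in that library, had fewer counts still than Cd5, at 0.367 CPM. The CD3 chains together, at 5.32 CPM, were 7.10-fold lower, and they equalled 64.9% of the Ptprc level there, within the range of 55.8% to 131.1% in the other 8 libraries. The other libraries also differed in rod level. Young library 3, aged library 2 and treated libraries 2 and 3 had rod sums of 606.1 to 1982 CPM and T and NK cell sums of 214.9 to 306.6 CPM. Young libraries 1 and 2 and aged libraries 1 and 3 had rod sums of 11370 to 19620 CPM and T and NK cell sums of 178.8 to 195.8 CPM. The part of retinal and other tissue in these levels was not tested.

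The CD3 chains did not separate the groups in RPE/choroid. Cd3d was 8.63, 6.88 and 10.2 CPM in young libraries 1 to 3, 6.65, 17.96 and 11.9 CPM in aged, and 1.47, 14.2 and 6.98 CPM in treated libraries. Cd3e was 12.2, 14.2 and 15.01 CPM in young, 10.3, 27.6 and 15.5 CPM in aged, and 1.53, 23.4 and 10.2 CPM in treated libraries. Cd3g was 13.2, 11.4 and 16.3 CPM in young, 12.4, 25.7 and 16.2 CPM in aged, and 2.32, 23.4 and 11.7 CPM in treated libraries. In each chain aged library 2 was the highest of the 9 and the groups overlapped in all 3 comparisons. The log2 differences of aged from young were 0.50 (95% interval -0.44 to 1.44) for Cd3d, 0.37 (-0.52 to 1.25) for Cd3e and 0.41 (-0.34 to 1.15) for Cd3g. Without aged library 2 they were 0.10, -0.10 and 0.06. Treated and aged libraries differed by -0.69 (95% interval -2.72 to 1.34) for Cd3d, -0.61 (-2.90 to 1.68) for Cd3e and -0.54 (-2.49 to 1.42) for Cd3g. Without treated library 1 these became -0.21, -0.09 and -0.05.

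The co-receptors did not separate the groups either. Cd4 was 53.1, 74.0 and 99.2 CPM in young libraries 1 to 3, 69.4, 87.5 and 44.7 CPM in aged, and 13.1, 79.7 and 67.4 CPM in treated libraries. It was the 1 gene of the 10 with a lower fitted level in aged than in young RPE/choroid, by -0.17 (95% interval -0.96 to 0.63). Cd8a was 15.7, 12.9 and 21.6 CPM in young, 13.4, 26.9 and 15.3 CPM in aged, and 1.19, 24.8 and 21.4 CPM in treated libraries. Its aged-to-young difference was 0.14 (95% interval -0.67 to 0.96). Without treated library 1 the treated-to-aged difference was 0.12 for Cd4 and 0.31 for Cd8a, instead of -0.33 and -0.23. The ratio of Cd8a to Cd4 was 0.0911 in treated library 1 and 0.175 to 0.342 in the other 8 libraries.

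Among the other T cell genes, Cd2 was 13.4, 12.7 and 17.9 CPM in young, 9.97, 27.8 and 17.1 CPM in aged, and 1.28, 22.5 and 14.2 CPM in treated libraries. Lck was 36.8, 33.9 and 45.8 CPM in young, 33.8, 57.4 and 41.2 CPM in aged, and 4.53, 62.5 and 32.2 CPM in treated libraries. Both followed the CD3 pattern, with aged library 2 and treated library 2 as the highest pair. Cd5 was the lowest in counts, with 0.891 to 1.47 CPM in young, 1.19 to 1.83 CPM in aged and 0.367 to 2.81 CPM in treated libraries. The aged-to-young difference was 0.31 (95% interval -0.62 to 1.25) for Cd2, 0.18 (-0.38 to 0.75) for Lck and 0.37 (-0.50 to 1.24) for Cd5. The treated-to-aged difference was -0.53 for Cd2, -0.42 for Lck and -0.10 for Cd5. Without treated library 1 it was -0.00069, 0.096 and 0.33 in that order.

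**Figure D4:**
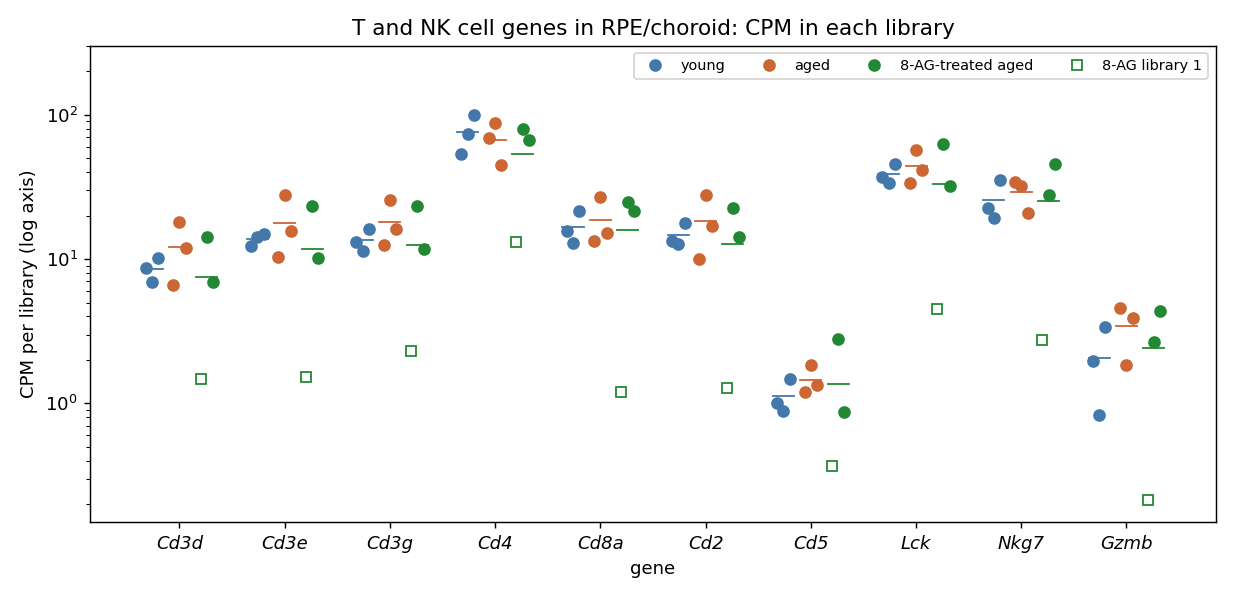
CPM of each gene in each RPE/choroid library on a logarithmic axis, with 1 point per library, horizontal bars at the group means and an open square for 8-AG library 1. The 3 groups overlap in every gene, and the open square is the lowest point of each gene.

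The cytotoxic genes ordered the libraries differently. Nkg7 was 22.8, 19.2 and 35.4 CPM in young, 34.0, 32.0 and 20.9 CPM in aged, and 2.75, 27.6 and 45.7 CPM in treated libraries. Gzmb was 1.97, 0.837 and 3.39 CPM in young, 4.58, 1.83 and 3.93 CPM in aged, and 0.214, 2.67 and 4.37 CPM in treated libraries. Treated library 3 was the highest for Nkg7 and aged library 1 for Gzmb, and aged library 2, highest in the CD3 chains, was neither. Gzmb had the largest aged-to-young difference of the 10 genes, 0.74, with a 95% interval from -0.73 to 2.20, and that of Nkg7 was 0.17 (-0.57 to 0.91). The treated-to-aged difference was -0.19 for Nkg7 and -0.51 for Gzmb, and without treated library 1 it was 0.33 and 0.022.

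None of the 10 genes passed the test in any RPE/choroid comparison. At an adjusted p under 0.05 edgeR called 0.0% of genes in each of the 3 comparisons, so the count of 0 among the 10 genes equals the background. By the study's rule of a fold over 1.5 with an unadjusted P under 0.05, 0 of 10 passed as well, beside 0.717% of genes higher and 0.636% lower in aged against young, 1.24% and 0.418% in treated against aged, and 1.71% and 0.278% in treated against young RPE/choroid. The unadjusted P was under 0.05 for 341, 274 and 341 genes in that order. DESeq2 called 34, 41 and 70 genes, and none of the 10 was among them. No gene of the 10 separated any pair of groups, beside 2.94% of genes higher and 3.71% lower in aged against young, 2.08% and 2.03% in treated against aged, and 2.69% and 2.98% in treated against young.

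The signs of the fitted differences turned on single libraries. In aged against young RPE/choroid 9 of 10 were above 0, as were 53.0% of all genes, with a median of 0.34 beside 0.02 over all genes. Without aged library 2 it was 5 of 10, with a median of 0.00. In treated against aged RPE/choroid 10 of 10 were below 0, as were 48.4% of all genes, with a median of -0.46. Without treated library 1 it was 4 of 10, with a median of 0.06. In treated against young 8 of 10 were below 0 beside 47.2% of all genes, with a median of -0.15, and 1 of 10 with a median of 0.35 without treated library 1. The last 2 comparisons share the treated libraries.

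**Figure D5:**
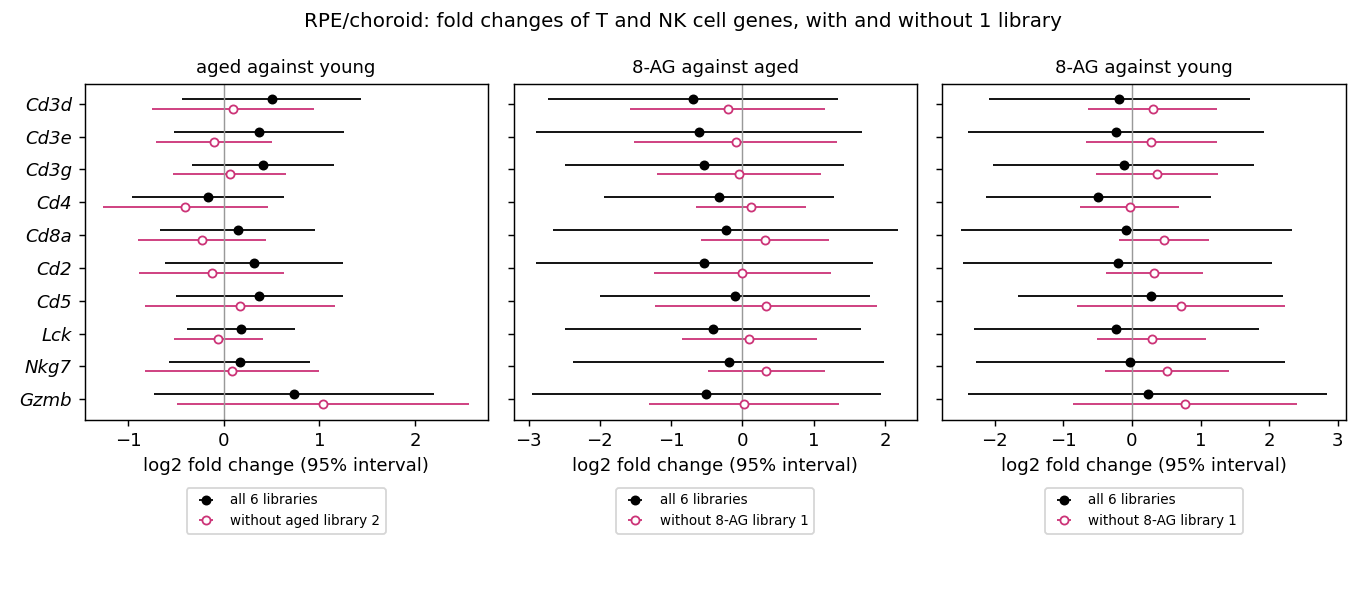
Log2 fold changes with 95% intervals of the 10 genes in the 3 RPE/choroid comparisons, with all 6 libraries (filled) and without 1 library (open). Every interval spans 0, and leaving out 8-AG library 1 moves all values of its 2 panels upward.

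Most of the further T and NK cell genes of RPE/choroid overlapped between the groups as well. The T cell gene Icos was 1.30 to 3.27 CPM in young and 3.29 to 6.53 in aged libraries. The cytotoxic gene Gzmk was 4.18 to 5.32 CPM in young and 6.41 to 8.46 in aged libraries. Such separation upward held for 2.94% of all genes. The NK gene Klrb1a was lower in all treated than in all aged libraries, beside 2.03% of all genes. Of 23 T cell genes 21 were tested in aged against young RPE/choroid and 18 were above 0 with a median of 0.40, and of 22 NK and cytotoxic genes 21 were tested and 17 were above 0 with a median of 0.22, none passing the test, beside 53.0% of all genes above 0. Without aged library 2 it was 14 of 21 and 12 of 21, beside 50.6% of all genes. In treated against aged RPE/choroid 19 of 22 T cell genes and 15 of 22 NK and cytotoxic genes were below 0, none passing, beside 48.4% of all genes. Without treated library 1 it was 8 of 22 in each list, beside 51.2% of all genes. Prf1, the pore protein of cytotoxic granules, was 28.5 ± 13.0 CPM in young, 35.4 ± 16.6 in aged and 29.7 ± 28.6 in treated RPE/choroid. Gzmm, another granzyme, reached 130.4 CPM in one treated library, 4.46 CPM in the lowest treated library and 19.7 to 33.8 CPM in young ones. The receptor chain Il2rb was 22.2 ± 5.75 CPM in young, 26.1 ± 7.54 in aged and 20.5 ± 15.3 in treated RPE/choroid. Cxcl12, a chemokine for many leukocytes, was 1391 ± 439.4 CPM in young, 1128 ± 672.1 in aged and 733.9 ± 641.3 in treated RPE/choroid. None of the 11 genes that attract or hold T cells passed. Cxcl9 was 14.8 to 29.6 CPM in treated, 41.2 to 46.9 in aged and 40.7 to 55.4 in young RPE/choroid. Cxcl11 was 0.723 to 1.77 CPM in treated and 2.36 to 4.97 in aged libraries. With Madcam1, at under 1 CPM, these genes were lower in all treated than in all aged libraries, beside 2.03% of all genes. The rest of the list overlapped in that comparison.

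The genes most like the CD3 chains over the 9 RPE/choroid libraries were found by the Pearson correlation of log2 CPM with the log2 summed CD3 level, over 16425 named genes other than the 10. They were Cxcr6, a chemokine receptor of T and NK cells (r = 0.993), Ptprcap, a partner of CD45 (0.992), Trbc2, a constant region of the T cell receptor (0.991), the homeobox gene Six2 (0.991) and the phosphatase Ptpn22 (0.989). Much of this likeness came from treated library 1, and 1186 genes had an r over 0.9. Over the other 8 libraries the leading genes were Six2 (0.985), Samd1 (0.980), Mfap5 (0.978), Pir (0.976) and Osmr (0.973). Of the 10 genes themselves, Lck (0.962), Cd2 (0.947) and Cd5 (0.857) kept a high r with the CD3 sum without that library, Cd8a had 0.723, Cd4 0.340, Nkg7 -0.081 and Gzmb -0.193. The libraries share depth and dissection, and these values are descriptions without a test.

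Whether the change with age differed between the tissues was tested with an interaction term over genes in both count tables. For Cd4, the gene best measured in retina, the log2 change with age was lower in RPE/choroid than in retina by -1.66 (standard error 0.42, unadjusted P = 0.00284). The edgeR adjusted p was 0.158, above the threshold, which 0.161% of genes passed. All 10 genes were tested and none passed, with 1 above 0, beside 48.6% of all genes. By the fold and unadjusted P rule 5 of 10 were lower, beside 912 of 16792 genes. Without aged retina library 2 it was 2 of 10, beside 727 of 17578 genes. Most of the 10 had few retina counts and were kept through RPE/choroid, so these counts are descriptions only. With aged retina library 2 left out, 1 gene in place of 27 passed and the Cd4 value was -1.43. Ptprc, by contrast, passed narrowly, at -1.92 (edgeR adjusted p = 0.0496), and no longer did without that library (-1.70, adjusted p = 0.0968). For the change with 8-AG, the interaction was -0.19 for Cd4 and -0.36 for Lck, and no gene passed in edgeR, with 413 at an unadjusted P under 0.05. The tissues were prepared and counted by different procedures, so levels were not compared between them.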

How the data were processed

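Retina and RPE/choroid of Fischer rats were profiled by RNA-seq with poly-A selection, with enrichment of full-length transcripts for RPE/choroid because RNA yield was low. The labels give total RNA for the 3 treated retina libraries and polyA RNA for the other 15, and the protocol describes poly-A capture for all. The submitters' processing notes name Bowtie2 2.1.0, RSEM 1.2.15 and edgeR, and the build Rnor_6.0. For retina the authors deposited RSEM expected counts, 11.5% of which were not whole and which were rounded here, and a table of TMM-normalized signal by gene symbol that the authors computed, used here to pair symbols with identifiers. For RPE/choroid the authors deposited raw read counts, named through the gene names in their comparison tables. Fold changes and p-values in the authors' comparison tables, and their normalized RPE/choroid tables, were not used. The rat RefSeq tables used for promoters and gene order are of the GRCr8 assembly.

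A comparison used the 6 libraries of its groups and edgeR 4.0.16 under R 4.3.3 (filterByExpr, TMM, glmQLFit with robust=TRUE, glmQLFTest), with Benjamini-Hochberg adjustment over all genes tested and a call at an adjusted p under 0.05. The standard error is the absolute log2 fold change divided by the square root of F. CPM use TMM factors over the 9 libraries of a tissue, and error is the SD of 3 libraries. An exact permutation test of 3 against 3 libraries cannot give a p below 0.1, so overlap of the groups is given as well. Scripts were tested on simulated data. Alternatives were RLE size factors, DESeq2 1.42.0, a minimum of 10 counts in sum or no filter, a joint fit of the 3 groups, robust=FALSE, a replicate block, summing libraries that share a rat number, and leaving out each library. A rod level covariate, a sum of both Gzmb identifiers in retina and interaction fits without 1 library were added after seeing the data.

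The 10 genes and all gene lists were chosen with earlier results of these data known. Of 175 listed symbols, 150 matched 1 identifier. The result of 1 further T cell gene is not reported here. The text names the 10 genes, genes of other lists that passed the test or else some of the best measured, and the 5 genes most like the summed CD3 chains. Prf1 in retina and Ptprc and Csf1r beside Cd4 were among the lists and chosen after their values were seen.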

Additional observations from a re-analysis of the deposited data

How the results depend on the processing

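Cd4 kept its rise in aged and in treated retina against young retina, with an adjusted p under 0.05, under every alternative run, with log2 values from 1.26 to 1.64 and 1.30 to 1.43 when a library was left out. None of the 10 genes passed an adjusted p under 0.05 in RPE/choroid under any alternative run. By the fold and unadjusted P rule, 5 of the 10 were lower in treated against young RPE/choroid with the rod covariate, beside 12.6% of all genes, and 1 was higher in aged against young without aged library 1, beside 0.936% of all genes. The number of genes called in treated against aged retina, 3 in the reported fit, was 18 by DESeq2, 10 without a filter, 0 with a replicate block and 0 with robust=FALSE. In RPE/choroid DESeq2 called 34 genes in aged against young, 41 in treated against aged and 70 in treated against young, and the rod covariate called 1 gene in aged against young. Leaving out a library gave 1245 to 2312 called genes in aged against young retina, 0 to 3 in treated against aged and 1026 to 2451 in treated against young retina. The interaction of tissue and age called 1 gene without aged retina library 2, and that of tissue and 8-AG also called 1 gene. Summing both Gzmb identifiers, chosen after seeing the data, gave 2 of the 10 genes in place of 1 with all aged above all young retina libraries. The cause of the other shifts was not tested.

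For members not past the threshold the sign was often unstable, and the log2 fold change was followed when each library was left out in turn. In treated against aged retina it ran from -0.30 to 0.084 for Cd4 and from -0.29 to 0.44 for Lck. In aged against young RPE/choroid it ran from -0.10 to 0.64 for Cd3e, from -0.40 to 0.065 for Cd4, from -0.23 to 0.35 for Cd8a, from -0.13 to 0.60 for Cd2, from -0.057 to 0.33 for Lck and from -0.013 to 0.45 for Nkg7. In treated against aged RPE/choroid it ran from -0.74 to 0.12 for Cd4, from -0.72 to 0.31 for Cd8a, from -1.20 to 0.33 for Cd5, from -1.26 to 0.096 for Lck, from -0.93 to 0.33 for Nkg7 and from -1.25 to 0.022 for Gzmb. In treated against young RPE/choroid it ran from -1.002 to 0.30 for Cd3d, from -1.22 to 0.28 for Cd3e, from -0.94 to 0.37 for Cd3g, from -0.56 to 0.47 for Cd8a, from -0.91 to 0.33 for Cd2, from -0.82 to 0.71 for Cd5, from -1.07 to 0.29 for Lck, from -0.76 to 0.51 for Nkg7 and from -0.51 to 0.80 for Gzmb. Without treated RPE/choroid library 1 the interaction of tissue and 8-AG turned to 0.27 for Cd4 and 0.16 for Lck, and without aged retina library 2 it was -0.39 and -0.83. Summing libraries that share a rat number gave -0.020 for Cd8a and -0.079 for Nkg7 in aged against young RPE/choroid. The rod covariate gave -0.053 for Cd8a in that comparison, and -0.47 for Cd5 and -1.24 for Gzmb in treated against young RPE/choroid.

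Replicate numbers were not taken as pairs, since in no comparison did every same-numbered pair correlate above 0.1, and values ran from -0.62 to 0.66. Libraries of unlike number were not correlated for comparison, so this does not exclude pairing. With the replicate block 1698 genes were called in aged against young retina and 1932 in treated against young retina, and 0 in each RPE/choroid comparison. The block turned Lck to 0.020 in treated against aged retina, and Cd5 to -0.18 and Gzmb to -0.16 in treated against young RPE/choroid. Low counts limit what the retina comparisons can show, where 6 of the 10 genes averaged under 3 counts per library.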

Other observations

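Other leukocyte genes beside those of T and NK cells were measured in both tissues. Csf3r, the receptor for the neutrophil growth factor G-CSF, rose in aged against young retina by 1.95 on the log2 scale (edgeR adjusted p = 0.0202), a call lost without aged library 2, young library 2 or young library 3 (adjusted p 0.0635, 0.0823 and 0.0694), and was 2.27 higher in treated than in young retina (edgeR adjusted p = 0.00348). The other neutrophil genes were too low for the test of aged against young retina. No B cell or plasma cell gene was high enough to be tested in retina, and their summed level was 1.16 to 2.17 CPM over the 9 libraries.

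In RPE/choroid all 8 B cell and plasma cell genes had values above 0 in aged against young tissue, with a median of 0.92 on the log2 scale beside 0.02 over all genes, and none passed the test. Without aged library 2 it was 7 of 8 with a median of 0.20. Their summed level was 6.45 to 19.3 CPM in young, 11.2 to 39.1 CPM in aged and 1.96 to 25.8 CPM in treated RPE/choroid, so the groups overlapped. Of 8 mast cell genes 7 were above 0 in aged against young RPE/choroid and 8 were below 0 in treated against aged, none passing. Without aged library 2 the first count was 6, and without treated library 1 the second was 7. Their summed level was 126.8 to 135.6 CPM in young, 54.0 to 183.2 CPM in aged and 39.2 to 129.4 CPM in treated RPE/choroid, lowest in treated library 1.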
